A study of Mus musculus with 4 samples.

Results

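The 83 features described here are the nuclear-encoded genes of oxidative phosphorylation. They are all features whose symbol names an NADH dehydrogenase subunit (Ndufa, Ndufb, Ndufc, Ndufs and Ndufv with a number), a Uqcr subunit, Cox4 to Cox8, an Atp5 gene or Sdha to Sdhd, without Cox6a2. They make up 83 of the 31054 features of the tables and carry 82 symbols, because Atp5o is listed under 2 gene IDs. By complex, 35 belong to complex I, 4 to complex II, 8 to complex III, 19 to complex IV, where Ndufa4 and Ndufa4l2 are counted, and 17 to complex V. All 83 are placed on a chromosome in the gene annotation used here. The symbols alone chose them, so that every level and ratio below is independent of the choice of members, although it was made with earlier results of these data known.

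The samples were 4 single-cell libraries of mammary tumours, each the only library of its group. The first model was T11-Apobec, a transplanted triple-negative breast cancer line grown in female Balbc mice, as 1 library after antibodies to PD1 and CTLA4 and 1 library with no treatment. The second was KPB25Luv, another transplanted line, grown in female FVB/NJ mice, again as 1 treated and 1 untreated library. Cells were injected into the number 4 mammary gland, treatment began at a diameter of 5 mm with 10 mg/kg of anti-PD1 and 100 µg of anti-CTLA4 biweekly, as the label puts it, and tumours were taken after 7 days of it. Number and age of the mice behind a library were not given in the sources used here. Since each group is 1 library, no test between groups was possible, and every interval below covers counting error only, not the spread between mice.

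Oxidative phosphorylation passes electrons from NADH (complex I) and succinate (complex II) through ubiquinone, complex III and cytochrome c to complex IV, which reduces oxygen. Complexes I, III and IV pump protons across the inner mitochondrial membrane, and complex V, the ATP synthase, uses their return to make ATP. A small set of core subunits is encoded in mitochondrial DNA, and the genes described here, in the nucleus, supply the others, including all of complex II. In tumour infiltrates the pathway is best known from T cells, in which resting and memory cells lean on it while cells that start to divide build new mitochondria and raise glycolysis at the same time.

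The libraries held 6504 barcodes in treated and 11304 in untreated T11-Apobec tumours, and 5509 in treated and 6773 in untreated KPB25Luv tumours, with median depths of 3877.5, 6924.5, 3653 and 8893 UMIs per barcode in that order. A UMI counts 1 captured transcript end, so that levels of different genes were compared without a division by length. Cell classes were set by the raw UMIs of fixed lineage markers, and levels are CPM, the UMIs of a gene per 1000000 UMIs of a class in a library. Classes under 50 cells in a library were left out. Ptprc, the pan-leukocyte gene CD45, which was used in the gates of non-immune cells alone, stood between 159 and 924 CPM in T, B and NK cells and macrophages/monocytes of these libraries. The first tumour gate left 302 and 3907 tumour cells in treated and untreated T11-Apobec, and 20 and 270 in treated and untreated KPB25Luv. It left out cells with a Ptprc UMI and cells that reached the minimums of an immune, endothelial or pericyte panel. A second gate by shares of UMIs, added after the data were seen, left 721, 5403, 61 and 2876 cells in the same order, and tumour values below come from it unless stated. Its Ptprc levels were 5.32, 1.46, 7.11 and 8.54 CPM. This second gate asks for 10 or more tumour panel UMIs. Immune and neutrophil genes may each reach 0.1% of UMIs, and endothelial and pericyte genes together 0.05%. Neither gate has a rule that leaves out fibroblasts, and their part in T11-Apobec tumour cells was not tested. Pairs of libraries shared 34 to 125 barcode sequences.

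Transcripts of the tumour panel were counted in every immune class, and more of them in the untreated libraries. The 5 tumour panel genes summed to 17.4 CPM in T cells of treated and 182 CPM in T cells of untreated T11-Apobec tumours, which is 0.917% and 7.01% of the level in tumour cells of the same library. In KPB25Luv they summed to 14.1 CPM in treated and 450.0 CPM in untreated T cells, or 0.255% and 10.3% of the tumour level. Macrophages/monocytes held 0.837% and 3.38% of that level in treated and untreated T11-Apobec, and 0.268% and 11% in treated and untreated KPB25Luv. In untreated T11-Apobec that panel was higher still in endothelial cells (9467 CPM, 301 cells) and pericytes (8014 CPM, 60 cells) than in tumour cells (2591 CPM), so these UMIs cannot be assigned to tumour cells alone, and the treated library held 5 endothelial cells. The part of RNA from other cells in the immune values below was not tested.

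Promoters of the genes that carry the results below are given next, since NRF1, GABP and YY1 are the factors best known to act at genes of this pathway. RefSeq promoters (GRCm38.p6, 250 bases before to 50 after the start) matched 68 of the 83 members, 66 by symbol and 2 by an older symbol. The NRF1 letters GCGCANGCG (N is any base), searched on both strands like the others, stood in 19 of the 68 (27.9%) and in 6.47% of all 27025 promoters. The ETS/GABP letters CCGGAAG stood in 15 of 68 (22.1%), against 9.12% of all, and the YY1 letters AAGATGGCG in 6 (8.82%), against 1.49% of all. Their promoters had a median GC content of 57.3%, against 52.7% for all promoters. A total of 33 members held any of these motifs, and a match describes letters only, not a bound site. Ndufa4 and Atp5k are printed because they lead the members that were lower in treated T11-Apobec, and Atp5g1, Atp5g2 and Atp5g3 because they encode the same protein in different proportions in different cells. Each line is the 250 bases before the start, on the strand of the gene, with an NRF1 match in capitals (the letters match on both strands there).
Ndufa4 (chr6:11907451-11907700, minus strand): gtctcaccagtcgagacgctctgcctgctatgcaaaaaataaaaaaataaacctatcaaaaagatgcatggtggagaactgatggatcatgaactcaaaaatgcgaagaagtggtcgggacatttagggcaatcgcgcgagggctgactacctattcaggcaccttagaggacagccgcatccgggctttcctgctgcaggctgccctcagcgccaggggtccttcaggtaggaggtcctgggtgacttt
Atp5k (chr5:108434400-108434649, minus strand): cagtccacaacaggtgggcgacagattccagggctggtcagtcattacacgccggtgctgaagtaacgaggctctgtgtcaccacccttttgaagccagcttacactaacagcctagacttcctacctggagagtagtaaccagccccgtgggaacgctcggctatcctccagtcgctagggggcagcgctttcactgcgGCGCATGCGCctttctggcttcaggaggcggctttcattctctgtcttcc
Atp5g1 (chr11:96075632-96075881, minus strand): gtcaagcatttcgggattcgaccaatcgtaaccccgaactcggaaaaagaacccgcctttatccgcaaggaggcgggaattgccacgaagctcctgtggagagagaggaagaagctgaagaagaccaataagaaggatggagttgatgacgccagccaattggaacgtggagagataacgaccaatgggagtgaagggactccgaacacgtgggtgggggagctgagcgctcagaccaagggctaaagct
Atp5g2 (chr15:102671048-102671297, minus strand): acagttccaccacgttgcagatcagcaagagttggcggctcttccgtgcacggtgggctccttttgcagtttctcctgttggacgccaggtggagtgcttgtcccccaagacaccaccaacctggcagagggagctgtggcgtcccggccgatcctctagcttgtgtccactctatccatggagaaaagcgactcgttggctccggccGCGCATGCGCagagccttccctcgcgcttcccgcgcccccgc
Atp5g3 (chr2:73911327-73911576, minus strand): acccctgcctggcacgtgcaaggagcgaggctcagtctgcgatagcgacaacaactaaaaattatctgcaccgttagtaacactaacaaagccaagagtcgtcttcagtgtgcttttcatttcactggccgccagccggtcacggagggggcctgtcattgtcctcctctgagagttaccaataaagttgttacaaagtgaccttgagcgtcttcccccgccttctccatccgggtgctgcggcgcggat
Atp5k and Atp5g2 hold an NRF1 match within the last 50 bases before the start. Within the first 50 bases after it, Atp5k holds an ETS/GABP match and Atp5g3 an NRF1 match. Ndufa4 and Atp5g1 hold none of the 3 motifs in the 250 bases shown.

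The members together took 2.87% of UMIs of treated and 3.48% of untreated T11-Apobec, and 2.61% of treated and 3.35% of untreated KPB25Luv. A total of 79 of the 83 had 10 or more UMIs over the series. Cox7b2, known from testis, had no UMI, Cox8b, the heart and muscle isoform, and Cox8c had 1 each, and the second Atp5o ID, which overlaps the first, had 8. The 5 members with the most UMIs were Cox4i1 (5.31% of member UMIs), Cox8a (3.50%), Cox6c (3.16%) and Cox7c (3.04%), all structural subunits of complex IV, and Atp5l (2.84%), subunit g of complex V. Among members with 10 or more UMIs the fewest were of Cox4i2 (0.00358%), Cox6b2 (0.00752%) and Ndufa4l2 (0.00950%), isoforms described below. Ndufs1, the large iron-sulphur subunit of complex I, had 0.0914% of member UMIs, with 26.1 and 24.9 CPM in T cells of treated and untreated T11-Apobec.

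The summed level differed by cell class and, in T, NK and tumour cells of T11-Apobec, also between the treated and the untreated library. Tumour cells stood highest, at 31629 and 36426 CPM in treated and untreated T11-Apobec and 32001 and 35255 CPM in treated and untreated KPB25Luv. Macrophages/monocytes had 30301 and 29990.0 CPM in treated and untreated T11-Apobec, and 27465 and 27182 CPM in treated and untreated KPB25Luv. T cells had 26240.1 and 29792 CPM in treated and untreated T11-Apobec, and 26431 and 26176 CPM in treated and untreated KPB25Luv. B cells were the lowest lymphocytes in all 4 libraries, with 19577 and 19857 CPM in treated and untreated T11-Apobec and 19288 and 20246 CPM in treated and untreated KPB25Luv. NK cells lay near T cells, at 24667 and 29589 CPM in treated and untreated T11-Apobec and 23299 CPM in treated KPB25Luv. Neutrophils, short-lived cells known for few mitochondria, had 12257 CPM in untreated T11-Apobec and 18262 CPM in untreated KPB25Luv, below every other class there. In untreated T11-Apobec, pericytes had 33888, endothelial cells 31246 and conventional dendritic cells 27523 CPM. Classes also differed in depth. The median there was 12818 UMIs in tumour cells, 4565.5 in pericytes, 4446 in endothelial cells and 3921 in macrophages/monocytes. It was 2242 in NK cells, 1629 in T cells, 880 in B cells and 671 in neutrophils. In untreated KPB25Luv it was 22606.5 in tumour cells, 6606 in macrophages/monocytes, 3387 in T cells, 1982.5 in B cells and 985 in neutrophils. The part of depth in this order was not tested.

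**Figure D1:**
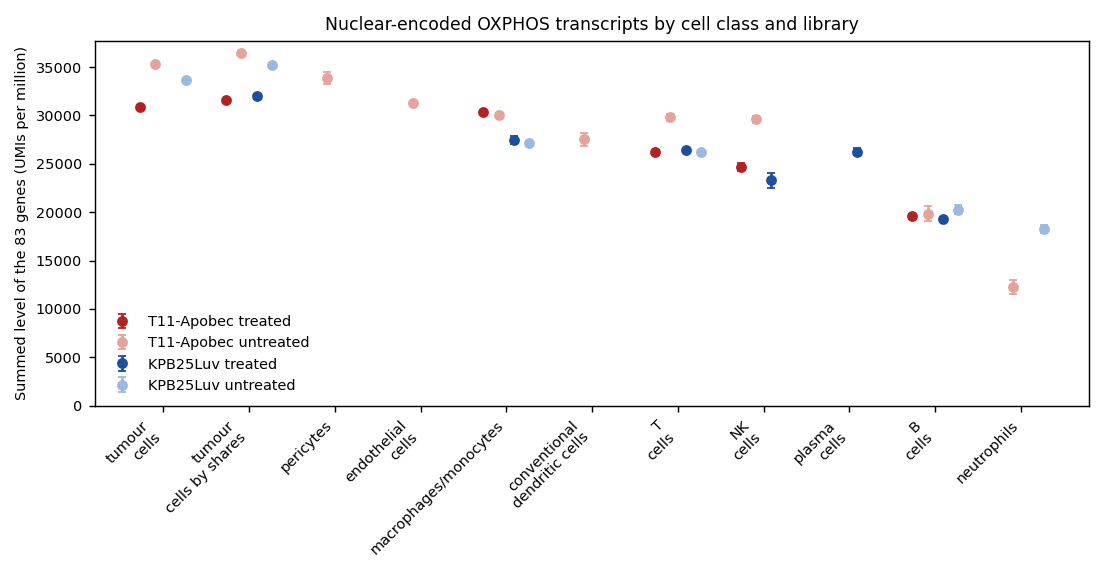
Summed level of the 83 genes in CPM (vertical axis) for each cell class (horizontal axis), with 1 point for each library and bars for the exact 95% Poisson interval, which covers counting error only. Tumour cells sit between 30888 and 36426, and B cells between 19288 and 20246, in every library shown.

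The order of macrophages/monocytes and T cells rested on the denominator. The summed log2 ratio of macrophages/monocytes over T cells was 0.21 and 0.01 in treated and untreated T11-Apobec and 0.06 and 0.05 in treated and untreated KPB25Luv when scaled to all UMIs. It was -0.04, -0.19, -0.30 and -0.25 in the same libraries when UMIs of ribosomal proteins, mitochondrial DNA, immunoglobulins and T cell receptors were left out of the totals, called the smaller total below. Cytosolic ribosomal genes took 179907 and 209467 CPM of macrophages/monocytes in treated and untreated T11-Apobec, against 315561 and 316347 CPM of T cells. The B cell order did not turn: B over T cells was -0.42 and -0.59 in treated and untreated T11-Apobec and -0.45 and -0.37 in treated and untreated KPB25Luv, and -0.34, -0.49, -0.43 and -0.38 with the smaller total.

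The share of UMIs from the members was also taken cell by cell, over cells with at least 1000 UMIs. In T cells its median was 2.42% (10th to 90th percentile 1.78 to 3.12%) in treated and 2.78% (2.01 to 3.64%) in untreated T11-Apobec. In KPB25Luv T cells it was 2.27% (1.72 to 3.16%) in treated and 2.39% (1.83 to 3.17%) in untreated tumours. Deeper T cells held a larger share, with Spearman's rho of 0.51 and 0.36 between share and UMIs across 3033 and 361 cells of treated and untreated T11-Apobec and 0.51 and 0.47 across 3937 and 1246 cells of treated and untreated KPB25Luv, a description of cells that share a library. Neutrophils of untreated KPB25Luv spread more widely than the main classes, from 0.909 to 3.26% around a median of 1.69% over 217 cells.

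Complex I took 7055 and 8137 CPM in T cells of treated and untreated T11-Apobec and 7056 and 7075 CPM in treated and untreated KPB25Luv. Within it, some accessory subunits set tumour cells apart. Ndufa7 had 626 and 729.6 CPM in tumour cells of treated and untreated T11-Apobec, and 491 and 406 CPM in treated and untreated KPB25Luv. In T cells Ndufa7 had 259.7, 358, 199 and 234 CPM in the same order, so that no T cell value reached a tumour value. Ndufb9, a subunit of the membrane arm, showed the same order with 601, 686, 816 and 656 CPM in tumour cells and 293, 323, 266 and 322 CPM in T cells. Ndufb8, also of the membrane arm and often used as a protein marker of complex I, had 323, 326, 566 and 606 CPM in tumour cells and 494, 454, 442 and 471 CPM in macrophages/monocytes, against 261, 250.5, 289 and 302 CPM in T cells. It was 1.5-fold higher in macrophages/monocytes than in T cells of all 4 libraries. Ndufb7 and Ndufa9 parted the 2 tumour lines: Ndufb7 had 181 and 205 CPM in treated and untreated T11-Apobec tumour cells, but 585 and 657 CPM in treated and untreated KPB25Luv tumour cells. Ndufa9 had 62.4 and 74.1 CPM in the first line and 193 and 146 CPM in the second, and line, strain and library cannot be told apart there. These 2 genes were chosen after their values were seen.

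Complex II, succinate dehydrogenase, also a tricarboxylic acid cycle enzyme, was the least abundant complex, with 501 and 523 CPM in T cells of treated and untreated T11-Apobec. Sdha, its flavoprotein, had 71.0 and 75.8 CPM in tumour cells of treated and untreated T11-Apobec and 64.0 and 77.1 CPM in treated and untreated KPB25Luv, below its 91.8, 115, 131 and 108 CPM in T cells. The membrane anchors ran the other way. Sdhc had 120.0, 133, 106 and 121 CPM in tumour cells and 124, 132, 122 and 107 CPM in macrophages/monocytes, against 68.9, 87.0, 79.7 and 85.6 CPM in T cells. Sdhd had 124, 111, 137 and 122 CPM in tumour cells and 99.9, 108, 112 and 80.6 CPM in T cells. Among tumour cells, macrophages/monocytes, T and B cells, Sdhb, the iron-sulphur subunit, was highest in macrophages/monocytes, at 327, 299, 234 and 260.1 CPM, and lowest in B cells, at 162, 118, 149 and 170.4 CPM.

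Complex III passes electrons to cytochrome c. Uqcrh, its hinge protein, was higher in T than in tumour cells, with 662 and 806 CPM in tumour cells of treated and untreated T11-Apobec and 392 and 599 CPM in treated and untreated KPB25Luv, against 924, 1046, 805 and 849 CPM in T cells. Uqcr11, a small accessory subunit, had the opposite order, with 489, 627, 429 and 359 CPM in tumour cells, against 233, 383, 256 and 225 CPM in T cells. Uqcrc2, a core protein, was lower in T11-Apobec tumour cells, at 61.8 and 74.1 CPM in treated and untreated tumours, than in their T cells, at 154 and 145 CPM, whereas KPB25Luv tumour cells had 167 and 129 CPM and their T cells 172 and 145 CPM. Uqcrh and Uqcrc2 were chosen after their values were seen.

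Complex IV holds most of the members with tissue isoforms. Its leading gene Cox4i1, the ubiquitous form of subunit 4, had 1525 and 1637 CPM in tumour cells of treated and untreated T11-Apobec and 1833 and 2257 CPM in treated and untreated KPB25Luv. In T cells Cox4i1 had 1371, 1339, 1181 and 1494 CPM. Among tumour cells, macrophages/monocytes, T and B cells, Cox5a, which pairs with subunit 4, was highest in macrophages/monocytes, at 831, 738, 960.4 and 955 CPM, and lowest in B cells, at 334, 298, 393 and 404 CPM.

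The isoform Cox4i2, known from lung and from cells that sense low oxygen, was highest in pericytes. In the 60 pericytes of untreated T11-Apobec it had 92 UMIs in 43 cells and 264 CPM, 13.3% of the subunit 4 UMIs. Ndufa4l2, the relative of Ndufa4 that hypoxia-inducible factors are known to raise, had 338 UMIs in 56 of these 60 cells and 968 CPM, or 74.9% of Ndufa4l2 and Ndufa4 together, beside 324 CPM for Ndufa4. With every cell thinned to 1000 UMIs, 75.0% of pericytes kept an Ndufa4l2 UMI and 25.0% a Cox4i2 UMI, while 0 of 361 T cells of that library did for either gene, which allows up to 1.02% of T cells with a UMI at that depth and puts no limit on the share that express the genes. The pericyte panel summed to 6524 CPM in these cells and to 0.935 CPM in tumour cells of the library. The T11-Apobec tumour panel, made of mesenchymal genes that pericytes also use (Sparc, Cald1, Cav1, Fstl1 and Prrx1), summed to 8014 CPM in pericytes and 2591 CPM in tumour cells.

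Outside pericytes, part of the Ndufa4l2 signal travelled with pericyte markers. In T cells of KPB25Luv it had 4 UMIs in 2 treated cells and 56 UMIs in 12 untreated cells, and 40 of the 56 stood in 6 cells with 2 or more UMIs of the pericyte panel. That panel summed to 0.175 CPM in treated and 63.9 CPM in untreated T cells. Cox4i2 in macrophages/monocytes did not travel with it in T11-Apobec, where it had 54 UMIs in 42 treated cells and 17 UMIs in 16 untreated cells, none of them in a cell with 2 pericyte UMIs. There it stood at 8.09 and 1.58 CPM, a log2 ratio of 2.33 (95% interval 1.55 to 3.24). In KPB25Luv it had 10 UMIs in 5 treated and 42 UMIs in 24 untreated cells, 4 and 17 of them in cells with pericyte markers, at 16.5 and 8.72 CPM.

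Cox6b2, the testis form of subunit 6b, was detected in macrophages/monocytes at 4.49 and 13.6 CPM in treated and untreated T11-Apobec and 11.6 and 19.9 CPM in treated and untreated KPB25Luv, lower in the treated tumour of both models (log2 ratios -1.58 and -0.69, the second on 7 UMIs in treated cells). Tumour cells held 0.158, 0.134, 0 and 0.610 CPM of Cox6b2 in the same libraries. Its ubiquitous partner Cox6b1 had 881, 818, 879.5 and 591 CPM in macrophages/monocytes. Cox7a1, the muscle form of subunit 7a, had at most 14.5 CPM in any main class, in macrophages/monocytes of untreated T11-Apobec.

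Cox7a2l encodes SCAF1, a relative of subunit 7a that links complexes III and IV into supercomplexes. Its share of Cox7a2l and Cox7a2 UMIs was highest in B cells, at 68.5% and 67.3% in treated and untreated T11-Apobec and 70.7% and 69.7% in treated and untreated KPB25Luv. T cells followed with 62.3%, 54.4%, 59.2% and 63.3%, and macrophages/monocytes with 50.3%, 52.1%, 37.4% and 56.8%. Tumour cells had 47.4%, 44.0%, 34.7% and 38.5%, and plasma cells of treated KPB25Luv 43.7%. Its level in B cells lay near that in T cells, unlike the members' sum: it had 737 and 798 CPM in B cells and 752 and 712 CPM in T cells of treated and untreated T11-Apobec.

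In complex V, Atp5g1, Atp5g2 and Atp5g3 encode an identical mature c subunit, which forms the rotor ring, behind different import signals. Atp5g1 supplied 40.7% and 40.5% of their UMIs in tumour cells of treated and untreated T11-Apobec and 53.2% and 56.3% in treated and untreated KPB25Luv. In T cells it supplied 23.1%, 25.8%, 33.6% and 37.8%, in B cells 23.0%, 21.2%, 31.4% and 34.6%, and in macrophages/monocytes 33.5%, 27.7%, 40.5% and 44.1%. The tumour panel in KPB25Luv T cells stood at 0.255% and 10.3% of the tumour level in treated and untreated libraries, and its part in these shares was not tested. Plasma cells of treated KPB25Luv had 43.8%. Atp5e, the epsilon subunit of the central stalk, had 499 and 564 CPM in T11-Apobec tumour cells, treated and untreated, and 1123 and 1142 CPM in those of KPB25Luv. Atp5e was chosen after its values were seen.

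**Figure D2:**
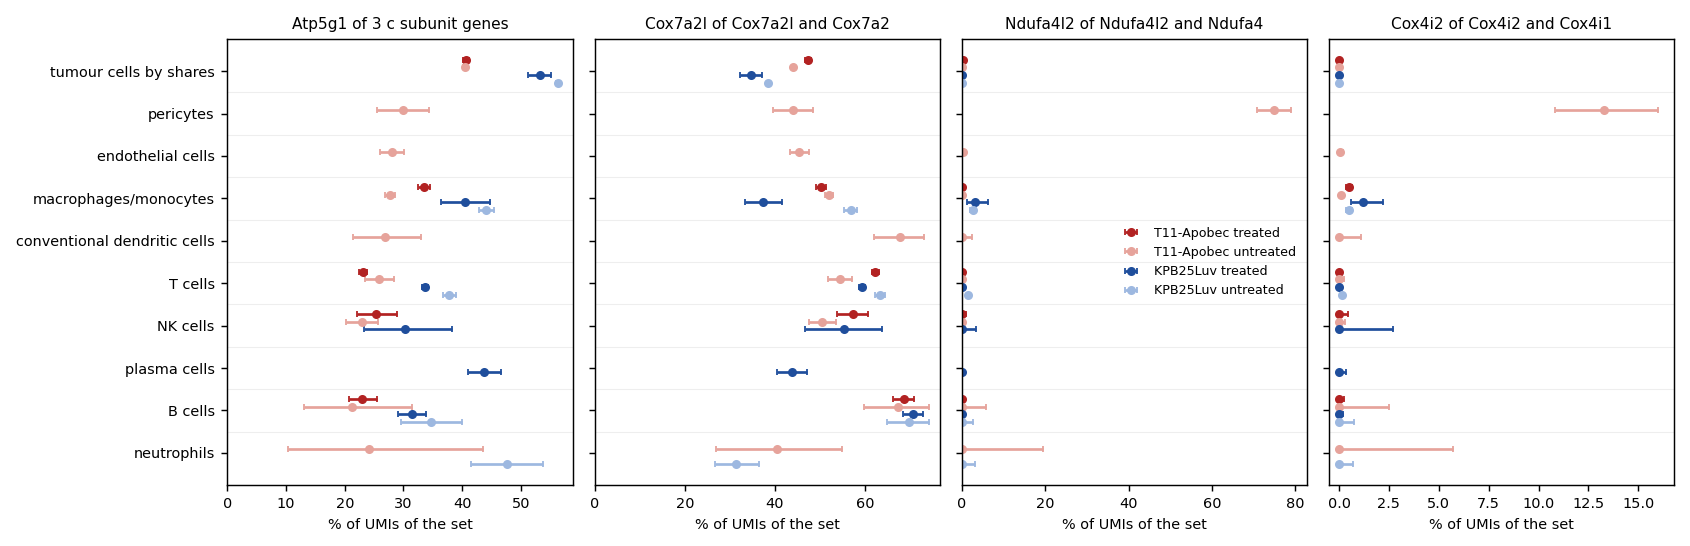
Share of 1 isoform among the UMIs of its set, in percent (horizontal axes, each on its own scale), by cell class (vertical) and library (colours), with exact 95% binomial intervals. Atp5g1 reaches 56.3% in tumour cells, Cox7a2l 70.7% in B cells, and Ndufa4l2 74.9% and Cox4i2 13.3% in pericytes.

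The log2 ratio of tumour cells over T cells of the same library was above 0 for 54 of 78 and 62 of 78 members in treated and untreated T11-Apobec, and for 48 of 77 and 57 of 79 in treated and untreated KPB25Luv. The members' medians were 0.27, 0.28, 0.30 and 0.42 in these libraries, beside 0.07, -0.01, 0.28 and 0.18 over all features. Of 78 members tested, 21 were higher and 4 lower in tumour than in T cells of treated T11-Apobec, beside 65.7% of all features past 1.5-fold in either direction, and 18 higher and 5 lower of 78 in the untreated tumour, beside 63.6%. In KPB25Luv 22 were higher and 7 lower of 77 in the treated tumour (69.1% of all features), and 24 higher and 6 lower of 79 in the untreated one (64.3%). Higher past 1.5-fold in all 4 libraries were Atp5g1, Atp5s, Ndufa7, Ndufb4, Ndufb9, Ndufc1 and Uqcr11, and Cox6b2 was lower in all 4. Atp5s, a coupling factor linked to complex assembly, did so at low levels, with 5.85, 6.63, 10.9 and 10.1 CPM in tumour cells and 3.41, 2.87, 2.89 and 4.18 CPM in T cells. Ndufb4, of the membrane arm, had 291, 345, 515 and 320.0 CPM in tumour cells and 150.4, 207, 162 and 157 CPM in T cells. The share of all features past 1.5-fold the same way in all 4 libraries was not counted. Tumour cells were also deeper than T cells in each library, and the part of depth in these ratios was not tested.

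Macrophages/monocytes had 12 members higher and none lower of 78 than T cells in treated T11-Apobec, beside 59.6% of all features past 1.5-fold in either direction, 6 higher and none lower of 78 in the untreated tumour (55.6%), 11 higher and 11 lower of 79 in treated KPB25Luv (65.4%), and 3 higher and none lower of 79 in untreated KPB25Luv (48.1%). Higher in all 4 libraries were Cox4i2, Cox6b2 and Ndufb8, and the share of all features that were so in all 4 was not counted.

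B cells were lower than T cells in 72 of 77, 69 of 74, 71 of 77 and 68 of 78 members tested in treated and untreated T11-Apobec and treated and untreated KPB25Luv. Past 1.5-fold, 18 of 77 members were lower in treated T11-Apobec (28.3% of all features), 32 of 74 in the untreated tumour (31.4%), 30 of 77 in treated KPB25Luv (33.8%) and 23 of 78 in untreated KPB25Luv (29.6%). The members' median log2 ratio of B over T cells was -0.43, -0.54, -0.48 and -0.42 in these libraries, beside -0.06, -0.08, -0.22 and -0.10 over all features. Atp5h, Cox5a, Cox7c and Ndufb6 were lower past 1.5-fold in all 4, and the share of all features that were so in all 4 was not counted. Atp5h, subunit d of the stator stalk, had 477 and 409 CPM in B cells and 761 and 757 CPM in T cells of treated and untreated T11-Apobec, and 419 and 552 CPM in B cells and 746 and 860.4 CPM in T cells of treated and untreated KPB25Luv.

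Plasma cells, the antibody-secreting cells that B cells give rise to, were compared in treated KPB25Luv, the library with enough of them (64 cells). Their summed level was 26264 CPM against 19288 CPM in B cells, a log2 ratio of 0.45 (95% interval 0.42 to 0.47). Of 75 members tested, 30 were higher and 2 lower past 1.5-fold, beside 18.5% of all features higher and 37.9% lower. Ndufa4, a complex IV subunit despite its name, had 1063 CPM in plasma and 484 CPM in B cells, and Ndufa1, a small complex I subunit, 315 and 129 CPM. Atp5g1 had 607 CPM in plasma and 273 CPM in B cells. The 2 lower members were Cox7a2l, with 429 against 673 CPM, and Sdha, with 85.1 against 131 CPM. The subunits encoded in mitochondrial DNA went the other way, with 11 of 13 lower and sums of 18799 CPM in plasma and 31974 CPM in B cells. With the smaller total, which leaves out immunoglobulin UMIs, the summed log2 ratio was 0.64. Plasma cells were deeper, with a median of 13216.5 UMIs against 2543.5 in B cells, and 48.4% of them were in cycle against 1.70% of B cells. Outside the cycle the sum was 20453 CPM in 33 plasma cells, under the minimum of 50 cells, against 18431 CPM in 578 B cells.

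Neutrophils had 67 of 74 members lower than in T cells of untreated T11-Apobec (58.8% of all features lower) and 43 of 78 in untreated KPB25Luv (44.8%). In neutrophils of untreated KPB25Luv mitochondrially encoded subunits came to 0.303 UMIs for each member UMI, the lowest ratio among the main classes. B cells held the highest ratio, with 1.88 and 1.70 in treated and untreated T11-Apobec and 1.66 and 1.23 in treated and untreated KPB25Luv. The gate on mitochondrial UMIs, at most 10% of a cell, limits that ratio from above.

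Among T cells, Foxp3-positive regulatory T cells, which restrain other T cells, had a slightly higher sum than conventional CD4 T cells, with 28584 against 25991 CPM in treated T11-Apobec, 29286 against 27493 CPM in treated KPB25Luv and 27435 against 24269 CPM in untreated KPB25Luv. The log2 ratios were 0.14, 0.09 and 0.18 in these libraries, and at most 5 of 75 to 77 members passed 1.5-fold in either direction, beside 32.1%, 23.3% and 37.0% of all features. Regulatory T cells were also more often in cycle, at 20.9% against 14.3%, 27.5% against 17.9% and 9.23% against 4.72% in these libraries. Outside the cycle, the median share of member UMIs per cell was 2.30% in both subsets of treated T11-Apobec, 2.23% against 2.31% in treated KPB25Luv and 2.39% against 2.15% in untreated KPB25Luv, so that regulatory T cells were higher there in untreated KPB25Luv alone. Granzyme-positive CD8 T cells, the armed killer cells, had 26791 CPM against 21922 CPM in naive-like CD8 T cells of treated T11-Apobec, but 22947 against 22728 CPM in treated KPB25Luv. The log2 ratio of 0.29 in T11-Apobec (6 members higher and 1 lower of 75, beside 41.4% of all features in either direction) was 0.06 without ribosomal, mitochondrial and receptor genes in the total. In KPB25Luv it was 0.01, with 1 of 76 members past 1.5-fold beside 21.7% of all features.

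T cells in cycle held more member transcripts than other T cells in each of the 3 libraries with enough of both. Cycling T cells, those with 2 or more UMIs of Mki67 and Top2a, had 29037 CPM against 24763 CPM in other T cells of treated T11-Apobec, a log2 ratio of 0.23 (95% interval 0.22 to 0.24). In treated KPB25Luv they had 30636 against 23485 CPM (0.38, 0.38 to 0.39), and in untreated KPB25Luv 30627 against 24561 CPM (0.32, 0.30 to 0.33). Of the members tested, 65 of 77, 71 of 77 and 72 of 78 had a ratio above 0 in these libraries, with medians of 0.28, 0.45 and 0.34 beside -0.10, -0.13 and -0.12 over all features. Past 1.5-fold, 1 of 77 members was higher in treated T11-Apobec (13.9% of all features), 23 of 77 in treated KPB25Luv (17.4%) and 8 of 78 in untreated KPB25Luv (12.3%). With the smaller total, the summed ratios were 0.15, 0.28 and 0.28. The gap was present among CD8 T cells alone, at 0.16, 0.40 and 0.28.

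All 5 complexes were higher in cycling T cells of the 3 libraries. Complex II had ratios of 0.40, 0.58 and 0.37 in treated T11-Apobec, treated KPB25Luv and untreated KPB25Luv, and complex V 0.32, 0.49 and 0.40. Complex III had the lowest ratios in treated T11-Apobec and untreated KPB25Luv, at 0.10 and 0.21, and 0.30 in treated KPB25Luv. Cox5a had 969 CPM in cycling and 487 CPM in other T cells of treated KPB25Luv, 906 and 558 CPM in untreated KPB25Luv, and 865 and 606 CPM in treated T11-Apobec. Atp5g3 had 374 against 211 CPM in treated and 337 against 196 CPM in untreated KPB25Luv. Sdhd had 157 against 80.6 CPM in treated KPB25Luv, whereas Sdha hardly differed, with log2 ratios of -0.04, 0.09 and 0.03.

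A few members were lower in cycling T cells, and Cox7a2l was among them in each library. It had 540.2 CPM in cycling and 864 CPM in other T cells of treated T11-Apobec, 461 and 752 CPM in treated KPB25Luv, and 599 and 821 CPM in untreated KPB25Luv. Ndufa6, an accessory subunit of complex I, had 285 against 377 CPM in treated T11-Apobec and 253 against 418 CPM in treated KPB25Luv. Ndufa6 was chosen after its values were seen, as were Atp5g3, Sdhd and Cox5a as examples of this contrast. Depth moved with the cycle, with medians of 8686 UMIs in cycling and 3068.5 in other T cells of treated T11-Apobec, 12508 and 3464 in treated KPB25Luv, and 8657 and 2910 in untreated KPB25Luv. The share of member UMIs was larger in deeper T cells, as given above, and the part of depth in this contrast was not tested. Outside T cells the gap was smaller: 0.12, 0.15 and 0.08 in macrophages/monocytes of treated T11-Apobec, untreated T11-Apobec and untreated KPB25Luv, and 0.04, 0.07 and 0.00 in tumour cells of the same libraries.

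Subunits encoded in mitochondrial DNA did not follow the nuclear genes in cycling T cells, with summed log2 ratios of -0.22, -0.21 and -0.10 in treated T11-Apobec, treated KPB25Luv and untreated KPB25Luv. Of the mitochondrial ribosome, which translates them, 8, 30 and 9 of 77 genes tested were higher past 1.5-fold, read against the 13.9%, 17.4% and 12.3% above. Of 8 genes for cytochrome c, the ATP, ADP and phosphate carriers, the Vdac porins and the ATPase inhibitor Atpif1, 4, 7 and 1 were higher. Of the tricarboxylic acid cycle 1, 5 and 4 of 16 were higher.

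**Figure D3:**
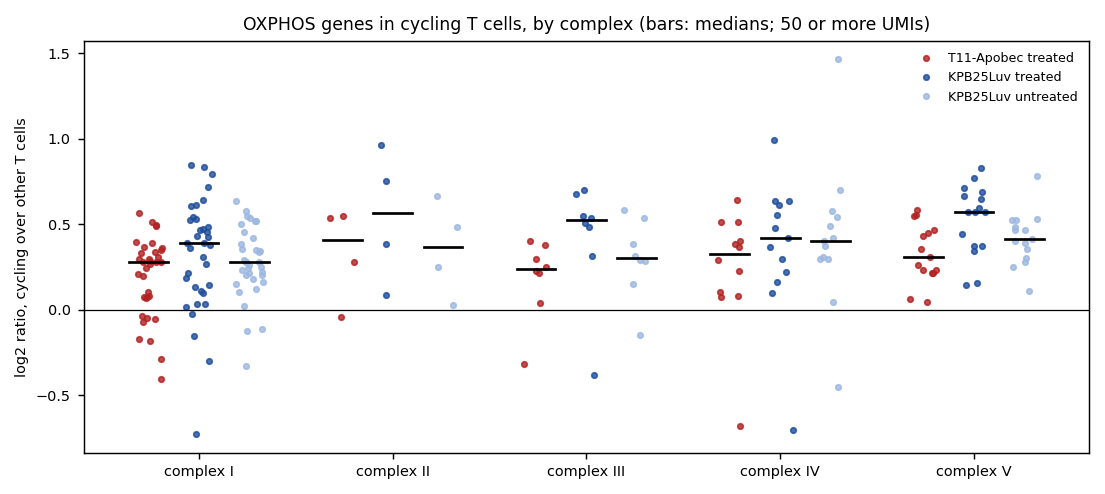
Log2 ratio of cycling over other T cells (vertical axis) for each gene with 50 or more UMIs, by complex (horizontal axis) and library (colours); black bars are medians over genes, which are not replicates. Every median lies above 0, and the low points of complex IV are Cox7a2l, at -0.68, -0.71 and -0.45.

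The labels set a treated against an untreated tumour of each model, after the same antibodies. In T11-Apobec the members' sum was lower in the treated tumour in T cells, NK cells and tumour cells, and level in B cells and macrophages/monocytes. The log2 ratio of treated over untreated was -0.18 in T cells (95% interval -0.20 to -0.17), -0.26 in NK cells (-0.29 to -0.23) and -0.20 in tumour cells (-0.21 to -0.20). It was -0.02 in B cells (-0.08 to 0.04) and 0.01 in macrophages/monocytes (0.01 to 0.02). The members' medians were -0.14, -0.22, -0.20, -0.02 and 0.01 in T, NK, tumour and B cells and macrophages/monocytes, beside -0.07, 0.07, -0.04, -0.06 and -0.07 over all features. Ratios were below 0 for 58 of 77 members in T cells, 66 of 75 in NK cells and 68 of 78 in tumour cells. The first tumour gate gave -0.19. With the smaller total the NK cell ratio was -0.43 and that of macrophages/monocytes -0.04, and with doubled panel minimums the T cell ratio was -0.34 and that of B cells -0.11. Treated and untreated T cells had median depths of 3573 and 1629 UMIs, B cells 1603 and 880, and NK cells 1887 and 2242. Macrophages/monocytes had 8622 and 3921, and tumour cells 25606 and 12818. The part of depth in these ratios was not tested. In cycle were 1.69% of treated and 7.96% of untreated NK cells. Outside the cycle, the median share of member UMIs per NK cell was 2.37% and 2.81%.

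Few members passed 1.5-fold. In T cells none of 77 was higher and 5 were lower, beside 33.6% of all features past 1.5-fold in either direction, and in NK cells 1 was higher and 7 lower of 75 (34.6%), or 18 lower with the smaller total. In tumour cells none was higher and 4 were lower of 78 (23.8%), in B cells 1 higher and 3 lower of 75 (45.8%), and in macrophages/monocytes 1 higher and 2 lower of 78 (24.2%). In each class these are smaller shares than among all features, which were not matched to the members for level. The part of counting error in this gap was not tested. By complex, the T cell ratios were -0.21, -0.06, -0.30, -0.19 and -0.12 for complexes I to V, and those of tumour cells -0.21, -0.02, -0.20, -0.22 and -0.19, so that complex II differed least in both.

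Ndufa4 and Atp5k led the lower members. Ndufa4 had 548 CPM in tumour cells of the treated and 1086 CPM in those of the untreated tumour, a log2 ratio of -0.99 (95% interval -1.02 to -0.96). In T cells Ndufa4 had 433 against 708 CPM (-0.71, -0.82 to -0.60), in NK cells 531 against 872 CPM and in macrophages/monocytes 413 against 592 CPM. In B cells, with 423 against 430.2 CPM, the intervals of the 2 values overlapped. Atp5k, subunit e of the ATP synthase, which helps its dimers form, had 209.7 against 335 CPM in tumour cells, 168 against 276 CPM in T cells, 156 against 256 CPM in NK cells, 221 against 297 CPM in macrophages/monocytes and 120.5 against 180.4 CPM in B cells. Its ratios ran from -0.72 to -0.43 over the 5 classes. The tumour panel was also lower in immune cells of the treated tumour, as given above, and its part in these immune ratios was not tested.

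Other members with low ratios were Uqcr11 in T cells, with 233 against 383 CPM (-0.72, -0.87 to -0.57), Uqcr10, a small subunit of complex III, in NK cells, with 293 against 454 CPM (-0.63), and Ndufa3, an accessory subunit of complex I, in tumour cells, with 144 against 244 CPM (-0.76, -0.82 to -0.70). Among CD8 T cells Ndufa4 had 381 against 675 CPM (-0.83), Atp5k -0.80 and Ndufa5 -0.71. The highest ratios were smaller. Cox5a in T cells had 695 against 589.8 CPM (0.24, 0.12 to 0.36), Atp5c1, the gamma subunit that turns in the ATP synthase, 503 against 442 CPM (0.19), and Ndufa12 in tumour cells 295 against 264 CPM (0.16). In macrophages/monocytes Atp5g1 had 448 against 306 CPM (0.55, 0.48 to 0.62), beside the Cox4i2 ratio of 2.33 given above. Ndufv2, a core subunit of complex I, stood at 139 against 62.4 CPM in B cells, but on 9 UMIs in the untreated tumour (1.08, 0.20 to 2.30).

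**Figure D4:**
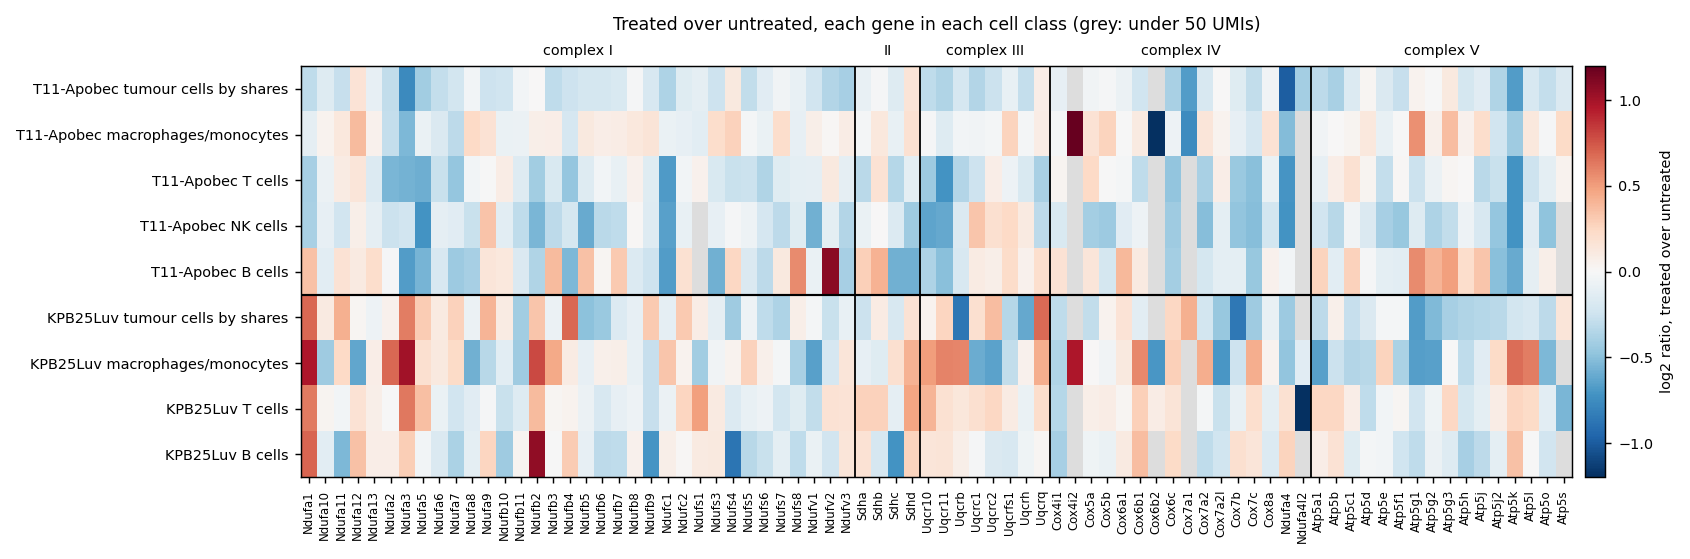
Log2 ratio of treated over untreated (colour, red above 0 and blue below, limited at 1.2) for the genes shown (columns, by complex) in each cell class and model (lines of the grid); grey marks genes under 50 UMIs in the 2 libraries together. Ndufa4, Atp5k and Ndufc1 are blue in each T11-Apobec class, though Ndufa4 in B cells only at -0.04, and Ndufa1 and Ndufa3 red in each KPB25Luv class.

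The same members were lower in several T11-Apobec classes. Of 73 members with 50 or more UMIs in each of T, B and NK cells, macrophages/monocytes and tumour cells, 21 (28.8%) had a ratio below 0 in all 5, beside 10.3% of the 2874 features that met the same minimum, and 1, Ndufa12, had a ratio above 0 in all 5, beside 6.37%. All 5 ratios compare the same pair of libraries, so the classes are not independent. The 21 were 10 genes of complex I, Sdhc of complex II, 3 of complex III, 4 of complex IV and 3 of complex V. Their lowest medians over the classes were -0.71 for Ndufa4, -0.67 for Atp5k, -0.65 for Ndufc1, -0.56 for Ndufa3 and Ndufa5, -0.50 for Uqcr11, -0.46 for Cox7c and -0.41 for Cox6c. The immune classes alone also gave 21, beside 12.8% of features, and so did the smaller total, beside 12.7%.

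These members had short transcripts. The median coding transcript was 651 nt for all members, against 1950.5 nt over 21825 features, and 540 nt for the 21 lower members, against 745 nt for the 51 with mixed signs. Across members, Spearman's rho of the ratio with length was 0.41 in T cells (75 members), 0.42 in macrophages/monocytes and 0.38 in tumour cells, and 0.20 and 0.22 in NK and B cells. This is a correlation across genes that share a library pair, and genes are not independent replicates. Among transcripts under 750 nt the members' median in T cells was -0.25 (44 members), against -0.05 for 853 other features. In macrophages/monocytes it was -0.02 (47 members), against -0.05 for 869 others, in B cells -0.03 (42), against 0.07 for 416, in NK cells -0.27 (42), against -0.02 for 427, and in tumour cells -0.21 (45), against -0.03 for 1009. The part of transcript length in these ratios was not tested. NRF1 letters stood in the promoters of 7 of 17 lower and 12 of 45 mixed members with an entry, among them that of Atp5k printed above, ETS/GABP letters in 3 of 17 and 12 of 45, and YY1 letters in 3 of 17 and 3 of 45.

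In KPB25Luv the members' sum did not differ much between treated and untreated cells of a class. The log2 ratio was 0.01 in T cells (95% interval 0.01 to 0.02), 0.02 in macrophages/monocytes (-0.01 to 0.04), -0.07 in B cells (-0.11 to -0.03) and -0.14 in tumour cells (-0.15 to -0.13). With the smaller total these were -0.05 in T cells, -0.09 in macrophages/monocytes and -0.29 in tumour cells, and in cells thinned to 1000 UMIs B cells had -0.14. Medians were 0.03, -0.00, -0.05 and -0.08 for the members in these classes, beside -0.02, -0.20, -0.05 and 0.25 over all features. Within T cells, conventional CD4 T cells of the treated tumour had 27493 CPM and those of the untreated one 24269 CPM (0.18, 0.15 to 0.21), regulatory T cells 29286 and 27435 CPM (0.09) and CD8 T cells 25855 and 26815 CPM (-0.05). In cycle were 17.9% of treated and 4.72% of untreated conventional CD4 T cells. Cycling T cells had 30636 and 30627 CPM, and other T cells 23485 and 24561 CPM. Of T cells, 649 of 4086 treated and 162 of 1321 untreated ones were in cycle. Treated and untreated T cells had median depths of 4026 and 3387 UMIs, and B cells 2543.5 and 1982.5. Macrophages/monocytes had 4254 and 6606, and tumour cells 27592 and 22606.5. The part of depth in the ratios of this model was not tested.

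Past 1.5-fold, 2 members were higher and 2 lower of 79 in T cells (37.5% of all features in either direction), 2 higher and 4 lower of 75 in B cells (38.7%), 10 higher and 11 lower of 79 in macrophages/monocytes (48.8%), and 5 higher and 5 lower of 78 in tumour cells (47.9%). The treated macrophages/monocytes number 125 and the treated tumour cells 61. Cytosolic ribosomal genes were lower in these treated classes. Past 1.5-fold, 50 of 91 were lower in macrophages/monocytes (32.6% of all features lower) and 45 of 91 in tumour cells (14.1%). Their sums were 141162 against 202769 CPM and 187065 against 267151 CPM.

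Small complex I subunits were the highest in KPB25Luv. Ndufa1 had 189 CPM in treated and 123 CPM in untreated T cells (0.62, 0.51 to 0.74), 267 and 137 CPM in macrophages/monocytes (0.97, 0.71 to 1.22) and 129 and 78.0 CPM in B cells (0.70). Ndufa3 had 178 against 115 CPM in T cells (0.63, 0.51 to 0.75) and 241 against 120 CPM in macrophages/monocytes (95% interval of the ratio 0.73 to 1.27). Thus Ndufa3 was higher in the treated KPB25Luv but lower in the treated T11-Apobec classes. Ndufa1 in conventional CD4 T cells had 199.7 against 79.7 CPM (1.31, 0.84 to 1.86), and Cox7c there 698 against 441.5 CPM (0.66).

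Cox4i1 and Atp5g1 stood lower in treated KPB25Luv, while other ATP synthase genes went both ways, as Atp5k did with ratios of 0.26, 0.36 and 0.67 in T cells, B cells and macrophages/monocytes and -0.22 in tumour cells. Cox4i1 had 1181 CPM in treated and 1494 CPM in untreated T cells (-0.34, -0.37 to -0.30), 1051 and 1384 CPM in B cells (-0.40), and 1188 and 1653 CPM in regulatory T cells (-0.48). Atp5g1 had 375 against 593 CPM in macrophages/monocytes (-0.66), 753 against 1199 CPM in tumour cells (-0.67, -0.75 to -0.59) and 422 against 545 CPM in CD8 T cells (-0.37). The tumour panel was at 0.268% of the tumour level in treated and 11% in untreated macrophages/monocytes, and its part in the immune Atp5g1 ratios was not tested. Cox7a2l had 343 against 559 CPM in macrophages/monocytes (-0.70, -0.91 to -0.50). In tumour cells Uqcrb, the ubiquinone-binding subunit of complex III, had 549 against 1003 CPM (-0.87, -0.96 to -0.78) and Cox7b 275 against 499 CPM (-0.86), while Uqcrq had 645 against 403 CPM (0.68).

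Over T and B cells, macrophages/monocytes and tumour cells of KPB25Luv, 11 of 74 members (14.9%) were above 0 in all 4 classes, beside 15.2% of 4146 features, and 12 (16.2%) below 0, beside 13.9%. Scaled to all UMIs, these shares are near the background. With the smaller total 6 of 74 were above 0, beside 10.9% of features. Below 0 were then 22 of 74, a larger share than the 19.9% of features, so that the lower count rested on the denominator. The highest medians were 0.69 for Ndufa1, 0.62 for Ndufa3 and 0.59 for Ndufb2, and the lowest -0.48 for Atp5g1, -0.36 for Cox7a2l and -0.35 for Cox4i1. With length, rho across members was -0.51 in macrophages/monocytes, opposite in sign to T11-Apobec, and -0.15, -0.06 and -0.09 in T cells, B cells and tumour cells.

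**Figure D5:**
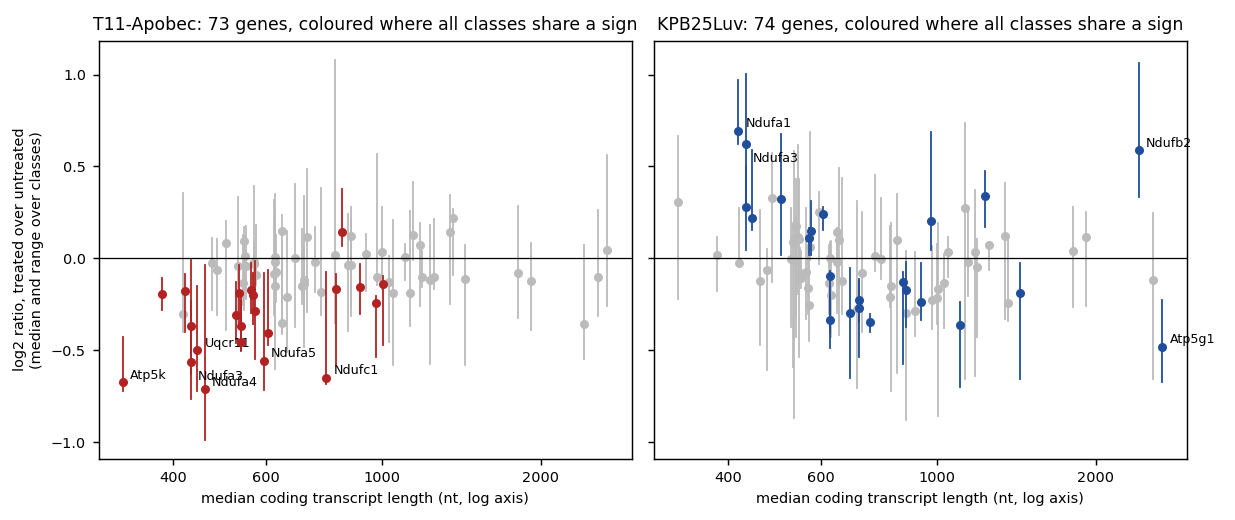
Median over cell classes of the log2 ratio of treated over untreated (vertical axis; lines span the lowest to the highest class) against the median coding transcript length in nt (horizontal log axis), for 73 genes in T11-Apobec (left) and 74 in KPB25Luv (right). Coloured points have 1 sign in all classes: 21 below and 1 above 0 in T11-Apobec, 12 below and 11 above in KPB25Luv.

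Past 1.5-fold the same way in both models were Cox4i2, higher, and Cox6b2, lower, among 78 members tested in macrophages/monocytes, beside 10.6% of all features tested in both models. In KPB25Luv these calls rested on few UMIs, 10 treated and 42 untreated ones of Cox4i2, and 7 and 96 of Cox6b2. Of the Cox4i2 UMIs, 4 and 17 stood in cells with pericyte markers. No member passed 1.5-fold the same way of 77 in T cells (13.2% of all features), 75 in B cells (10.9%) or 78 in tumour cells (8.51%). Past 1.5-fold in opposite ways were Cox7a1 in macrophages/monocytes (2.84% of all features) and Ndufa3 in tumour cells (5.44%). In tumour cells 40 of 78 members were below 0 in both models and 4 above 0 in both, beside 21.9% and 28.9% of all features. In T cells 27 of 77 were below 0 in both and 11 above (31.8% and 27.2% of all features), in B cells 19 and 11 of 75 (29.2% and 23.4%), and in macrophages/monocytes 15 and 16 of 78 (39.4% and 21.9%).

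Of 14 glycolysis genes, 13 were higher past 1.5-fold in macrophages/monocytes of treated than of untreated T11-Apobec, beside 10.7% of all features, with a median of 0.98 and sums of 9343 against 5063 CPM, in the class in which the members were level. In the other T11-Apobec classes glycolysis had 3 of 14 genes higher in T cells (13.5% of all features), 4 of 13 in NK cells (20.6%) and 4 of 14 in tumour cells (12.6%). In KPB25Luv it had 5 of 14 higher in macrophages/monocytes (16.3%) and 5 of 14 in tumour cells (33.7%), the second near the background. Of the 13 mitochondrially encoded subunits, 2 were lower in T cells of treated T11-Apobec (sum -0.19), beside 20.1% of all features, and 2 were higher in T cells (sum 0.21; 14.3%) and in B cells (sum 0.36; 17.9%) of treated KPB25Luv. These shares are near the background.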

How the data were processed

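Single-cell 3' libraries (10x Genomics v2) of 4 mammary tumours were used. The authors deposited raw UMI counts per gene and cell barcode, made with Cell Ranger 3.0.2 per the file headers and mapped to mm10 per the submitters' processing notes. Reads that match several genes are not counted by this tool, so genes with near-identical copies and the overlapping Atp5o IDs are uncertain. Everything after these counts was computed here.

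Cells with at least 200 genes and at most 10% mitochondrial UMIs were kept (6131, 10321, 5273 and 6475 in treated and untreated T11-Apobec and treated and untreated KPB25Luv). Lineage panels set the classes. Immune cells reaching the minimum of several panels went to the one with the highest sum over its minimum. They were left out as conflicting if tied or if another panel reached 2 times its minimum. Immune cells with 10 or more UMIs of the tumour panel, and cells with both endothelial and pericyte markers, were left out as conflicting too. Conflicting cells numbered 674, 1980, 208 and 3085, and 161, 366, 84 and 391 were given no class. Doublets were handled by these rules, and by Scrublet scores as an alternative. UMIs were summed per class and library. The log2 ratio has 0.5 added counts and an exact conditional 95% interval, and levels an exact Poisson one. A feature counts as past 1.5-fold with at least 10 UMIs in the 2 sets together. Shares over all features were not matched to the members for level. The smaller total leaves out ribosomal protein, mitochondrially encoded, immunoglobulin and T cell receptor genes. With 1 library per group there is no test and no p-value. PCR duplicates are merged by UMIs, and intervals cover counting error only.

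Genes were named by rule: per class and model the 3 highest and 3 lowest members by the interval end nearest to 0 with at least 50 UMIs, members past 1.5-fold the same way in both models, isoform sets, the 4 Sdh genes and the 5 members with the most UMIs. A result that this rule names for 1 member is not reported here, and that member is left out of the plot of ratios by gene. Genes named outside it are marked where named, but Ndufb8, Ndufc1, Ndufs1 and Atp5s, also outside it, carry no mark. Genes named for a contrast between classes were chosen after their values were seen. Members, lists and tests were chosen with earlier results of these data known. Promoters come from RefSeq (GRCm38.p6) and transcript lengths from GENCODE M21. Scripts ran in Python 3.11.15 with numpy 2.4.6, scipy 1.17.1, pandas 2.3.3, scanpy 1.11.5, anndata 0.12.19 and matplotlib 3.10.9, and were tested on simulated data. Library totals were 47131040, 98475778, 30369476 and 87677328 UMIs in the order above.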

Additional observations from a re-analysis of the deposited data

Results flagged for a closer look

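The direction of 3 results differed between the models, and none of these differences was tested, since each group is 1 library. Cox7a1 in macrophages/monocytes had a log2 ratio of treated over untreated of -0.75 in T11-Apobec and 1.91 in KPB25Luv, the second on 4 UMIs in treated and 9 UMIs in untreated cells. Ndufa3 in tumour cells had -0.76 in T11-Apobec and 0.61 in KPB25Luv. The summed members in T cells had -0.18 in T11-Apobec and 0.014 in KPB25Luv, where the sign of the second turned with the smaller total.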

How the results depend on the processing

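Of the main values under these alternatives, 119 stayed within the counting interval or within 1.5 times the count, and 58 moved further and are given here. These take tumour cells by the first gate wherever it left enough cells, and leave out T cell subtypes. For the T cell subtypes, and for tumour cells by shares where the first gate also gave a value, 51 stayed and 39 moved. Those 39 are not listed here. With the smaller total, the treated over untreated sum became -0.43 in NK cells, -0.038 in macrophages/monocytes and -0.15 in tumour cells (first gate) of T11-Apobec, and -0.048 in T cells, -0.095 in macrophages/monocytes and -0.29 in tumour cells of KPB25Luv. Medians became -0.39 (NK cells), -0.042 (macrophages/monocytes) and -0.13 (tumour cells, first gate) in T11-Apobec and -0.23 (tumour cells) in KPB25Luv. Members past 1.5-fold became 19 (18 lower) in NK and 7 in B cells of T11-Apobec, and 8 in the B cells with 1 added count. With the mean over cells, tumour cells of T11-Apobec (first gate) had -0.19, and KPB25Luv T cells -0.041, B cells -0.12 and tumour cells -0.10. Cells thinned to 1000 UMIs gave 0.040 in macrophages/monocytes of T11-Apobec, and -0.052, -0.14, -0.011 and -0.12 in T cells, B cells, macrophages/monocytes and tumour cells of KPB25Luv. Doubled panel minimums gave -0.34 in T cells, -0.11 in B cells and 0.0042 in macrophages/monocytes of T11-Apobec, and -0.017 in T cells and -0.0094 in macrophages/monocytes of KPB25Luv. Without the highest Scrublet scores T cells of T11-Apobec had -0.17. Without cycling cells they had -0.22, and KPB25Luv T and B cells -0.065 and -0.12. Tumour cells by shares in place of the first gate gave -0.20 in T11-Apobec. The cause of these shifts was not tested.

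The ratio of tumour over T cells (first gate) in treated T11-Apobec was 0.20 with the smaller total, 0.33 as a mean over cells, 0.25 with doubled minimums and 0.27 by shares. It was 0.16, 0.35, 0.10 and 0.29 in the untreated tumour, and 0.20, 0.47, 0.38 and 0.43 in untreated KPB25Luv. In treated KPB25Luv, by shares, it was 0.0081 with the smaller total, so that this excess was nearly absent there, and 0.49 as a mean over cells. Cycling over other T cells gave 0.15, 0.28 and 0.28 with the smaller total in treated T11-Apobec, treated KPB25Luv and untreated KPB25Luv, and 0.22 and 0.35 with 4 or more cycle UMIs in the treated tumours. Cycling macrophages/monocytes of treated T11-Apobec then had 0.089, and cycling tumour cells of untreated T11-Apobec 0.046, or 0.060 with the smaller total. Members above 0 in every class became 2 in T11-Apobec over immune classes alone, and in KPB25Luv 17, or 6 with the smaller total, while those below 0 in KPB25Luv became 22, beside 19.9% of features. The gate by shares and the settings for members of 1 sign in every class were chosen after seeing the data.

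No paired analysis was possible because each group has 1 library, which also means that no library can be left out. Library and treatment cannot be told apart, and mice were not replicated. Classes of few cells, such as the 61 treated tumour cells of KPB25Luv, and members near 10 UMIs carry wide intervals.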
